A study of Homo sapiens with 4 samples.

Results

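Intergenic summits far from protein-coding genes were examined in 4 peak lists of libraries described as CUT&Tag. The cells were 22RV1, a human prostate cancer cell line derived from a castration-resistant xenograft. A summit is the base of highest signal in an interval of a list. A summit was a member when it lay on chromosomes 1 to 22 or X, more than 2 Mb from the chromosome ends, outside every RefSeq protein-coding gene of GRCh38 and more than 5000 bp from the nearest one. The ribosomal RNA repeats on the short arm of chromosome 21 were left out. The rule reads position alone and uses no level or ratio. Levels still bear on which sites are listed, since an interval names only its highest base. There were 9142 members among the 26756 deposited intervals: 3587 of 10061 in the control of the inhibitor, 959 of 3304 under the inhibitor, 3899 of 10759 in the siRNA control and 697 of 2632 with RB siRNA. Groups of 4 values below keep this order of libraries.

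The inhibitor was PD0332991 (palbociclib), which blocks the kinases CDK4 and CDK6, and the siRNA was directed against RB, the retinoblastoma protein that these kinases phosphorylate. Each treatment had a control of its own, and doses and times are not given in the labels. All groups were the same parental line, and each was 1 library, so differences lack a replicate check and carry no p-value. A difference between lists compares those libraries, not the conditions. The antibody target is not given in the sources used here. The depth of RB knockdown was not analysed here. The labelled tissue was set beside coding gene ends of 10 prostate luminal genes: a summit lay at 1 (ACP3) in the control of the inhibitor, at 1 (FOXA1) under the inhibitor, at 2 (FOXA1, SLC45A3) in the siRNA control and at 1 (FOXA1) with RB siRNA. None of 5 blood and 4 liver genes had a gene-end summit in any library, and of 4 endothelial genes KDR had one under the inhibitor. A summit shows signal on chromatin and is not a measure of expression.

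The DNA between protein-coding genes holds promoters of long noncoding RNAs (lncRNAs), small RNA genes, pseudogenes and enhancers, which are regulatory elements that act on promoters from a distance. Factors of the ETS family, which includes ETS1, bind a GGAA core and often sit at promoters of CpG-rich DNA, while E2F factors, which RB holds in check, bind promoters of cell cycle genes. Repeated segments of the intergenic genome exist in near-identical copies, and short reads from them can be placed on any copy.

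The sequences below are those on which the description of member promoters turns: the lncRNA promoters of the RefSeq GRCh38.p14 table (250 bases before to 50 after the start) that held a member summit of 5 FPM or more in at least 3 libraries. FPM is the number of fragments at the summit per 1000000 fragments of the library. Capitals mark the ETS letters CCGGAAG and the E2F letters GCGGGAA on either strand, and a promoter without capitals holds neither. Sequences at the other members, which need the genome itself, are not shown.
LINC01003 (chr7:152463874-152464173, plus strand): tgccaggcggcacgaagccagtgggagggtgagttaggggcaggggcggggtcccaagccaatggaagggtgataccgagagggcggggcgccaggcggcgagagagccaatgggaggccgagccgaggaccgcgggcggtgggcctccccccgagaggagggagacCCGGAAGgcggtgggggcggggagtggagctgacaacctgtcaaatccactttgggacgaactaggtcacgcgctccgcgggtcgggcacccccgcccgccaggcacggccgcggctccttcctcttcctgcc
LINC02987 (chr19:27793645-27793944, plus strand): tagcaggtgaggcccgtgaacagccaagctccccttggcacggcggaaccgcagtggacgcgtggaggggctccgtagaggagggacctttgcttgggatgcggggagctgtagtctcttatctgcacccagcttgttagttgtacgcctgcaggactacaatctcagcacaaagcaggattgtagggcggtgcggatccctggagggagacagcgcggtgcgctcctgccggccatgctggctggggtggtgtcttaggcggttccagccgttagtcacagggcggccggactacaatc
LOC105378629 (chr1:32351346-32351645, minus strand): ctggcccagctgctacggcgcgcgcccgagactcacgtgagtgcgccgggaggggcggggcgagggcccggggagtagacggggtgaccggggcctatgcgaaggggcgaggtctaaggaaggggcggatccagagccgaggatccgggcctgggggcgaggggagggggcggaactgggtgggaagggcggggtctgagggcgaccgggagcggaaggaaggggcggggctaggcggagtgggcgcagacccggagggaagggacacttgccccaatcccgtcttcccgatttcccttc
LOC112267988 (chr7:143836513-143836812, plus strand): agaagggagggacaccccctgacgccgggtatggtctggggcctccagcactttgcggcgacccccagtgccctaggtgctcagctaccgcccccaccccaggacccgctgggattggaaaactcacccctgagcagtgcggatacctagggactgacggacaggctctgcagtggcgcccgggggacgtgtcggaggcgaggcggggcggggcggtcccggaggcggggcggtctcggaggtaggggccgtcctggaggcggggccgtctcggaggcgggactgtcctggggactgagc
LOC124905136 (chr22:46035860-46036159, plus strand): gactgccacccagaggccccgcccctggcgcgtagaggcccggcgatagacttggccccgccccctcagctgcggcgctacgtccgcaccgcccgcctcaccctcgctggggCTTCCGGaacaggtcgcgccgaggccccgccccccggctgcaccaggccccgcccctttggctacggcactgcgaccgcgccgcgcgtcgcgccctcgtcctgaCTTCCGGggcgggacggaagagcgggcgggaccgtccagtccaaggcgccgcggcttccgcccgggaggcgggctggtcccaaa

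LOC124905136 held the ETS letters at 2 places, 138 and 34 bases before the start on the reverse strand, and LINC01003 held them 83 bases before the start. The GC box letters GGGCGG or their reverse, which proteins of the SP family bind, were present in all 5 of these windows. Summit levels at LINC01003, beside KMT2C (27.9 kb), were 54.5, 72.8, 41.1 and 55.3 FPM. At LOC124905136 they were 32.1, 38.2, 23.6 and 27.6 FPM, and at LOC105378629, 9.85 kb from FAM229A, 29.7, 37.7, 15.8 and 27.6 FPM. In the control of the inhibitor the summit at LOC124905136 lay 318 bases before the start, outside the window shown. At these 3 lncRNAs a summit was listed near the start in every library, lowest in the siRNA control and highest under the inhibitor.

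Most members were weak. The median level was 1.22, 2.09, 0.862 and 1.65 FPM, which is 3, 4, 3 and 4 fragments, since 1 fragment is worth 0.407, 0.524, 0.287 and 0.413 FPM. Summits within 1000 bp of a coding gene end had medians of 4.88, 7.86, 3.45 and 7.43 FPM in the same lists. The authors' deposited fold over background had a median of 1.026, 1.018, 1.029 and 1.012 at members. By that fold most members lay close to background, though 1 fragment adds little to it and the amount differs between lists. A member is thus a summit of a deposited interval, and need not be a site that stands above background. The highest member reached 354, 489, 268 and 371 FPM and ranked 14th, 13th, 9th and 10th among all summits of its list on chromosomes 1 to 22, X and Y. The lists with more intervals cut the genome more finely: the median interval around a member was 157, 463, 156 and 498 kb wide, and each interval lists only 1 summit. Counts of weak members are therefore not compared between lists. The background solved for each list held 34562, 9592, 36250 and 7641 read ends, which ranks the lists as their interval counts do. Its part in the numbers of intervals and members was not tested.

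Members were scarcer among summits than their share of the genome. The position rule covers 1600 Mb, or 54.5% of the allowed genome, yet members made up 39.2% of the allowed summits (95% exact binomial interval 38.2 to 40.2) in the control of the inhibitor, 31.8% (30.1 to 33.5) under the inhibitor, 39.5% (38.6 to 40.5) in the siRNA control and 29.2% (27.4 to 31.1) with RB siRNA. The share depended on level. It was 46.6%, 43.3%, 44.4% and 40.2% of summits under 5 FPM, 11.4%, 16.2%, 11.8% and 13.9% of summits of 5 to 50 FPM, and 27.0%, 23.3%, 32.8% and 24.7% of summits of 50 FPM or more. The middle class was thus the one with the lowest share of members in all 4 libraries, and its interval overlapped that of the highest class in both treated libraries but in neither control. Intervals on shares are Clopper-Pearson and cover counting error only. They treat summits as independent, which repeated loci are not. Shares of bases, here and below, count assembly gaps too. No summit can lie in a gap, so these shares are only approximate baselines. Of the 38, 28, 20 and 22 members of 50 FPM or more, 10, 1, 1 and 1 lay in an array of U2 RNA genes on chromosome 17. Another 6, 6, 5 and 2 lay on the short arm of chromosome 21. The raised share of the highest class is therefore uncertain.

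**Figure D1:**
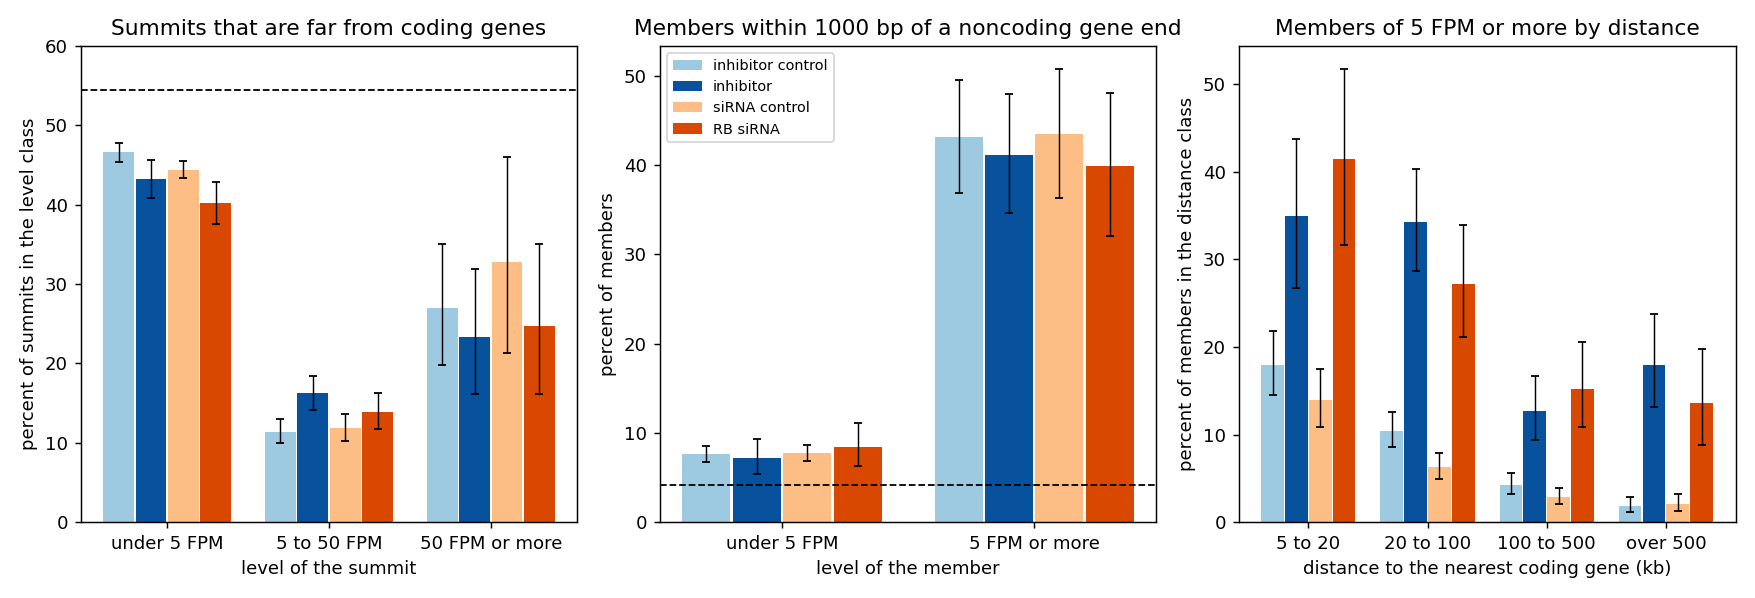
Left, percent of summits in 3 level classes that are members (dashed line: 54.5% of the allowed genome meets the position rule). Middle, percent of members within 1000 bp of a noncoding gene end, for members under and of at least 5 FPM (dashed line: 4.20% of bases). Right, percent of members of 5 FPM or more by distance to the nearest coding gene in kb. Bars are single libraries and error bars are 95% exact binomial intervals. Members of 5 FPM or more lay at noncoding gene ends in 39.9% to 43.5% of cases.

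Higher members lay nearer to genes. Members of 5 FPM or more numbered 248, 221, 191 and 153, and those of 50 FPM or more 38, 28, 20 and 22. In the control of the inhibitor 18% of members 5 to 20 kb from a coding gene reached 5 FPM, against 10.4% at 20 to 100 kb, 4.28% at 100 to 500 kb and 1.86% beyond 500 kb. In the siRNA control the shares were 13.9%, 6.27%, 2.92% and 2.06%. The treated lists, which hold fewer weak members, had higher shares: 34.9%, 34.3%, 12.7% and 18% under the inhibitor and 41.4%, 27.1%, 15.2% and 13.6% with RB siRNA. In each library the share was higher within 20 kb than beyond 500 kb, with intervals that did not overlap.

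The stronger members were concentrated at the ends of noncoding genes. Bases within 1000 bp of a noncoding gene end make up 4.20% of the DNA that the rule covers, and 7.61%, 7.18%, 7.74% and 8.46% of members under 5 FPM lay there. Of members of 5 FPM or more the count was 107 of 248 (43.1%, interval 36.9 to 49.6), 91 of 221 (41.2%, 34.6 to 48.0), 83 of 191 (43.5%, 36.3 to 50.8) and 61 of 153 (39.9%, 32.1 to 48.1). The 4 libraries did not differ beyond their counting intervals. A further view is the gene body: 35.1%, 35.7%, 33.0% and 34% of these members lay inside a noncoding gene, against 23.5% of bases. At 5 to 50 FPM the shares were 38.1%, 37.3%, 33.9% and 36.6%. Among the few members of 50 FPM or more they were only 18.4%, 25%, 25% and 18.2%.

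By class of gene, lncRNA ends held the most members of 5 FPM or more (56, 45, 37 and 31), followed in the control of the inhibitor by transcribed pseudogenes (34, 30, 27 and 17). Pseudogenes not annotated as transcribed held 13, 25, 16 and 16, and small nuclear RNA (snRNA) genes 22, 7, 14 and 7. MicroRNA genes held 6, 7, 6 and 4, transfer RNA genes 2, 4, 2 and 1, and small nucleolar RNA genes 2, 1, 3 and 0. A member can lie at the ends of genes of more than 1 class. Members of 5 FPM or more within 1000 bp of a RefSeq start site or the 3′ end of a noncoding gene were split by the nearer one. The summit was nearer to a start site for 36, 32, 22 and 17 members and nearer to the 3′ end for 4, 3, 3 and 4. The share nearer to a start site was 90%, 91.4%, 88% and 81%. A gene can have several start sites, also inside it, but only a single 3′ end was used, so an equal split is not the baseline.

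The RefSeq promoter windows of 27 lncRNA genes held a member of 5 FPM or more in at least 1 library. Their 29 windows had a median GC content of 64.7%, against 50% for all 12918 lncRNA windows and 58.7% for all 35116 windows. The ETS letters CCGGAAG, read on both strands, were found at 8 of the 27 genes (29.6%), in 5.83% of lncRNA windows and in 10.3% of all windows. The E2F letters GCGGGAA were found at 1 gene (3.70%; 3.84% of lncRNA and 6.55% of all windows), the cyclic AMP response letters TGACGTCA at 1 (3.70%; 1.15% and 1.85%) and the palindromic NRF1 motif at 3 (11.1%; 0.790% and 1.24%). GGGCGG was found at 23 (85.2%; 25.5% and 45%). GC content differs between these sets, its part in the motif shares was not tested, and a match is only a run of letters.

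A small set of members recurred. In all 4 lists 47 members were present as mutually nearest summits within 250 bp, beside 313 summits at coding gene ends, and 25 of the 47 lay at a noncoding gene end. Of members of 5 FPM or more they made up 16.9%, 19.5%, 20.4% and 25.5%, beside 20.9%, 34.8%, 24.5% and 40.6% for gene-end summits of that level. The highest over the lowest level of a locus had a median of 2.21 (range 1.20 to 4.59). The inhibitor library had the highest value at 35 of the 47 loci (74.5%), against 195 of the 313 at gene ends (62.3%), and the siRNA control had the lowest at 34 (72.3%), against 225 (71.9%). Over all loci with a member of 5 FPM or more there were 483, of which 236 were listed in 1 library, 121 in 2, 80 in 3 and 46 in 4. The share listed in all 4 was 9.52%, and it was 16.8% of 2001 loci at coding gene ends. An unlisted locus is not an absent one, since a higher summit in the same interval hides it.

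The highest member in each library lay inside LOC102724701, an uncharacterised lncRNA on the short arm of chromosome 21 (position 6369956), with 354, 489, 268 and 371 FPM. Next by geometric mean was a summit 8.12 kb from LRRC3C on chromosome 17 (position 39953118), with 232, 323, 129 and 164 FPM. The summit inside STEAP2-AS1, an antisense lncRNA of the metalloreductase gene STEAP2, lay 229 kb from STEAP1 on chromosome 7 (position 89925028) and measured 249, 166, 118 and 208 FPM. It was the only one of the 10 highest shared loci with its highest value in the control of the inhibitor. These 3 loci spanned 1.82-fold, 2.51-fold and 2.11-fold from lowest to highest library.

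A summit 20.6 kb from CCNE1, the gene of cyclin E1 that drives entry into S phase and is a classical E2F target, measured 132, 174, 74.7 and 125 FPM. The member 22.3 kb from CFAP126 on chromosome 1 (position 161390192) sat at the same base in all 4 lists and measured 100, 137, 56.0 and 85.4 FPM. At position 10012594 on chromosome 2, 10.3 kb from GRHL1, a transcription factor of the grainyhead family, the levels were 158 FPM in the control of the inhibitor, 79.0 FPM in the siRNA control and 108 FPM with RB siRNA. Under the inhibitor the nearest summit, at 10012226, had 162 FPM. Near LTBP1, a latent TGF-beta binding protein gene 30.5 kb away, the levels were 57.8, 163, 67.5 and 63.1 FPM: 3 libraries lay within 57.8 to 67.5 FPM and the inhibitor library stood far above them. At LINC00957, 5.52 kb from DBNL, they were 80.9, 94.3, 38.5 and 56.1 FPM. No member was screened against regions known for artefactual signal. Whether the summits named here, including that near LTBP1, mark regulatory elements was not tested.

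**Figure D2:**
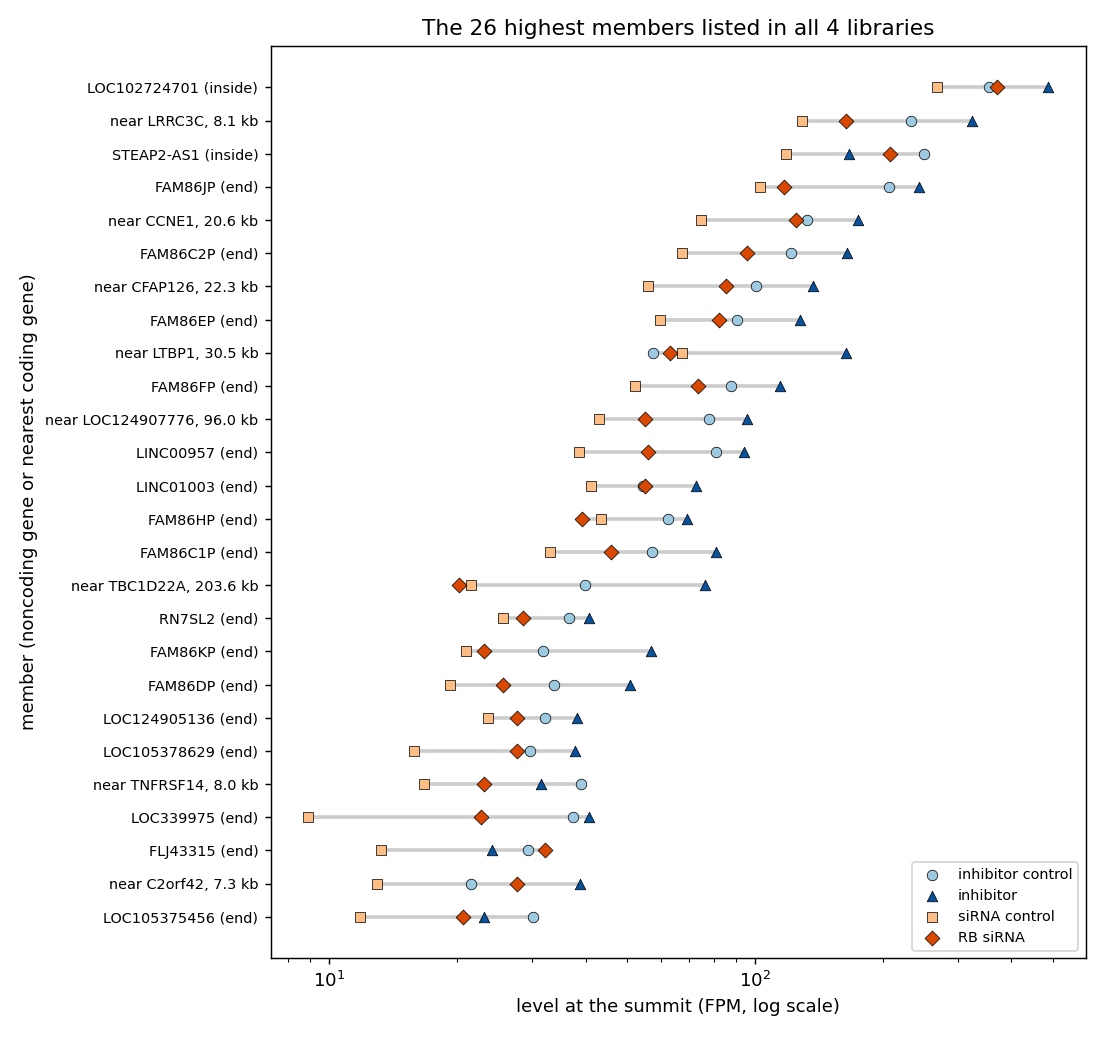
Level at the summit in FPM (log scale) of the 26 highest members listed in all 4 libraries, ordered by geometric mean and labelled by the noncoding gene at or around the summit or by the nearest coding gene. Each symbol is 1 library and grey lines join the lowest and highest. The inhibitor library is highest at most loci and stands apart at the member near LTBP1 (163 FPM against 57.8 to 67.5).

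Pseudogenes of the FAM86 family formed a group of like members. The family's working gene encodes a methyltransferase that modifies elongation factor 2, and its pseudogenes are duplicated copies on several chromosomes. This family was singled out after its values were seen. Of 12 annotated pseudogenes, 10 had a member summit at an end in the control of the inhibitor, in the siRNA control and with RB siRNA. Levels ran from 31.7 to 207 FPM in the control of the inhibitor, 19.3 to 103 FPM in the siRNA control and 23.1 to 117 FPM with RB siRNA. These summits lay 145 to 341 bp from the gene end. The 2 others, FAM86LP and FAM86MP, had no member at their ends.

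FAM86JP was the highest of them, with 207, 242, 103 and 117 FPM. FAM86C2P measured 122, 164, 67.2 and 95.7 FPM. FAM86EP measured 90.7, 128, 59.8 and 82.5 FPM and FAM86FP 87.8, 115, 52.3 and 73.5 FPM. In these 4 the order of the libraries was the same, with the inhibitor highest and the siRNA control lowest. FAM86HP differed, with its lowest value with RB siRNA (62.6, 69.1, 43.4 and 39.2 FPM). FAM86C1P measured 57.3, 81.2, 33.0 and 45.8 FPM, FAM86DP 33.8, 50.8, 19.3 and 25.6 FPM and FAM86KP 31.7, 57.1, 21 and 23.1 FPM.

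A pair of these pseudogenes could not be read in the inhibitor list. FAM86GP (128, 72.4 and 98.6 FPM in the other lists) fell in a gap between intervals there, and so did the summit of FAM86B3P (142, 79.3 and 95.3 FPM). The listed value of 12 FPM at FAM86B3P under the inhibitor sits at the last bases of an interval, 859 bp from the gene end, and is not the level of that summit. Of members of 5 FPM or more, 2, 6, 1 and 4 lay within 20 bp of their interval's edge. Reads can be shared among copies of this family, so the level of a single pseudogene is uncertain.

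**Figure D3:**
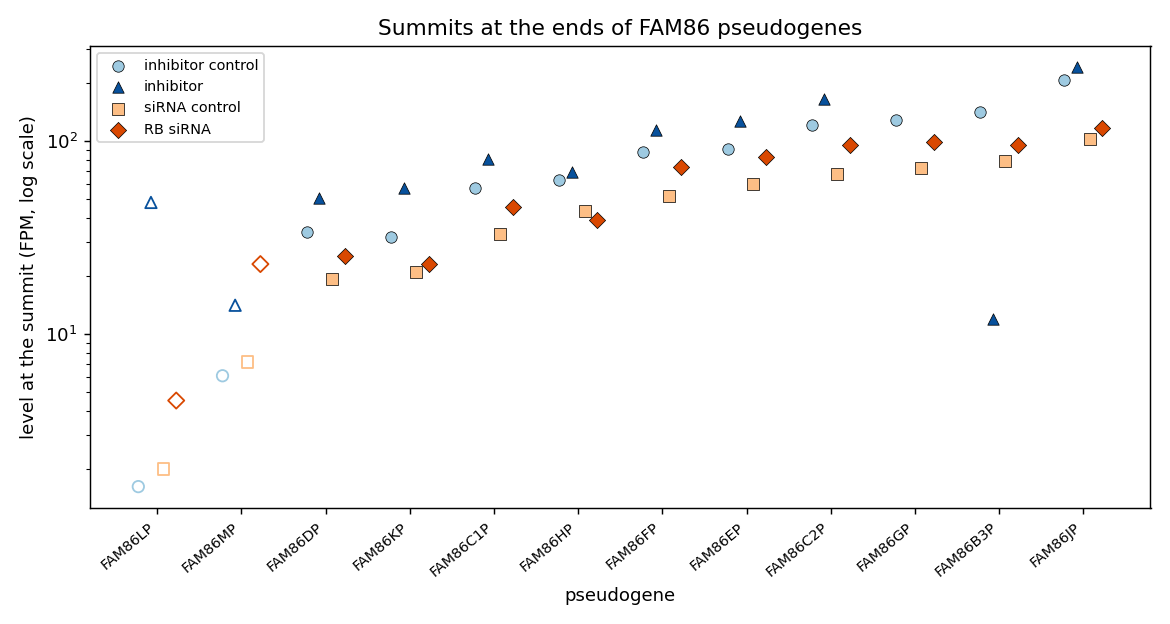
Level at the summit in FPM (log scale) at 12 FAM86 pseudogenes, ordered by the siRNA control. Filled symbols are member summits at a gene end, and open symbols give the height of the summit of the covering interval where no member lay at the gene, an upper limit. In the siRNA control levels range from FAM86DP (19.3 FPM) to FAM86JP (103 FPM), and the low filled inhibitor value at FAM86B3P (12 FPM) is an interval edge.

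Genes of spliceosomal snRNAs, the RNAs that recognise splice sites, carried another group. The U2 array of chromosome 17 (chr17:43233790-43368087) holds 14 annotated U2 genes in tandem copies. The control of the inhibitor listed 10 member summits there, from 59.8 to 134 FPM with a median of 89.5. The other 3 lists covered the array with 1 interval each and so named 1 summit, of 144, 92.5 and 124 FPM. The top of the array was thus lowest in the siRNA control. Reads of the copies cannot be told apart, so the level of a single U2 gene is uncertain.

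The 4 U1 genes of chromosome 1 each had a member in at least 1 list. RNU1-4 measured 30.1 FPM in the control of the inhibitor and 35.6 FPM under the inhibitor, RNU1-3 26, 29.9 and 19.5 FPM in the first 3 lists, and RNU1-2 24.4 FPM in the siRNA control and 29.7 FPM with RB siRNA. RN7SL2, the RNA of the signal recognition particle that targets proteins to the endoplasmic reticulum, was listed in every library with 36.6, 40.9, 25.6 and 28.5 FPM, spanning 1.60-fold. SNORD3D, a U3 small nucleolar RNA gene, measured 38.6 FPM in the control of the inhibitor and 14.9 FPM in the siRNA control.

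Transfer RNA genes with a member gave low values. The rule allows no member at a gene inside or close to a coding gene. A gene without a member, here and in the gene lists below, need not lack signal. Of 443 such genes, 7, 9, 14 and 3 had a member at an end, with medians of 2.44, 12, 2.01 and 4.54 FPM. All 9 under the inhibitor belonged to a cluster of repeated genes on chromosome 1 near 161454841, whose summits reached 12 FPM. In that region 2 other lists showed only the 100 and 85.4 FPM summit near CFAP126, behind which such summits would be hidden. Of 17 annotated 5S ribosomal RNA genes, 2 had a member, in the RB siRNA list alone (RNA5S13, 16.9 FPM and RNA5S7, 10.7 FPM). Intervals with summits of up to 54.5 and 122 FPM covered them in the inhibitor pair, and a gap covered them in the siRNA control.

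MicroRNA genes with a member of 5 FPM or more at an end in any library and a member there in at least 3 of them are shown by their mature sequences, with the seed (bases 2 to 8) in capitals, from RefSeq GRCh38.p14. A microRNA pairs with its targets through the seed. No 2 of the seeds printed here are the same, and the summits mark chromatin at the genes, not the RNA.
miR-663a (chr20:26208243-26208264, minus strand): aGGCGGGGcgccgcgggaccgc
miR-3648 (chr21:8987026-8987046, plus strand): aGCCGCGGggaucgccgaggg
miR-10396a-5p (chr21:8987617-8987635, plus strand): gGCGGGGCucggagccggg
miR-10396a-3p (chr21:8987645-8987665, plus strand): gGCCCCGGgcccucgaccggg
miR-3180-5p (chr16:16309892-16309916, plus strand): cUUCCAGAcgcuccgccccacgucg
miR-3180-3p (chr16:16309936-16309957, plus strand): uGGGGCGGagcuuccggaggcc
miR-3147 (chr7:57405030-57405053, plus strand): gGUUGGGCagugaggaggguguga
miR-4449 (chr4:52712720-52712741, plus strand): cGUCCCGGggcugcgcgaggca

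The summit near MIR663A, 888 to 902 bp from the hairpin gene and at its host lncRNA MIR663AHG, measured 15.9, 27.8, 15.8 and 13.2 FPM. The inhibitor library was highest and the other 3 lay close together. At MIR3147 a summit 398 to 401 bp from the gene had 11 FPM under the inhibitor, 5.75 FPM in the siRNA control and 4.54 FPM with RB siRNA, while the one listed in the control of the inhibitor (6.51 FPM) lay elsewhere, 820 bp from the gene. Levels at MIR4449, near the start of the lncRNA DANCR, were 4.88, 6.81 and 2.59 FPM in the first 3 lists. The copies MIR3180-1, MIR3180-2 and MIR3180-3 of chromosome 16 encode the same mature sequences and measured 16.7, 15.9 and 15 FPM in the control of the inhibitor, so that a read could belong to any of them.

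MIR3648-2 and MIR10396A lie side by side near position 8987297 of chromosome 21, close to the ribosomal repeats that the rule leaves out. The summit there measured 40.7 FPM in the control of the inhibitor, 62.9 FPM in the siRNA control and 64.8 FPM with RB siRNA. Under the inhibitor the covering interval named a higher summit of 185 FPM, which hides any summit at these genes. It was the only member of 50 FPM or more with RB siRNA on that chromosome's short arm besides the one in LOC102724701.

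The short arm of chromosome 21 (below 11 Mb) held 6 of 38, 6 of 28, 5 of 20 and 2 of 22 members of 50 FPM or more. Several of these were alike in level and in distance to the nearest gene. Their sequences were not read, so whether they are copies was not tested. In the control of the inhibitor summits at 5602667, 6218196, 7097952 and 7479730 had 154, 156, 154 and 151 FPM, or 379, 383, 378 and 372 fragments, and each lay 10663 to 10770 bp from the nearest annotated gene. The summit in the pseudogene CTBP2P9 (7658666) had 165 FPM. Under the inhibitor the same positions that were listed had 191 to 210 FPM, and in the siRNA control 96.0 to 101 FPM.

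A set of copies lay at the starts of 3 uncharacterised lncRNAs, LOC124904989, LOC124904991 and LOC124904992. Their RefSeq promoter windows are identical over all 300 bases, so the window is printed once. Reads that lie within it cannot be assigned to a single locus. The listed summits lay 73 to 111 bases after the start, past the end of the window. The sequence under the summits themselves was not read.
LOC124904989 (chr21:7142275-7142574, minus strand): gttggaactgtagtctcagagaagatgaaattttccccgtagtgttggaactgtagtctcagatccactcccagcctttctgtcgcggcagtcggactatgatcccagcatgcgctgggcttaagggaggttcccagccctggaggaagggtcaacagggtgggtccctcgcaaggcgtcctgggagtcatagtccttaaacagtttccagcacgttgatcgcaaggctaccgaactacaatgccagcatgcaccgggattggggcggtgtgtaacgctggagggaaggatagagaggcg
In the control of the inhibitor the 3 loci had 41.5, 40.3 and 39.5 FPM (102, 99 and 97 fragments). One copy was listed under the inhibitor (55.0 FPM) and another in the siRNA control (33.0 FPM). Levels on this arm are uncertain for single loci.

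Members nearest to genes of the lists tied to the study were counted as well. For 22 androgen receptor and prostate lineage genes there were 9, 1, 7 and 2 members, of which 2, 1, 2 and 1 reached 5 FPM. Those were the summit in STEAP2-AS1 described above and one 11.7 kb from KLK4, a kallikrein protease gene of the prostate, with 7.32 FPM in the control of the inhibitor and 8.33 FPM in the siRNA control. For 22 E2F and cell cycle genes there were 8, 2, 10 and 1 members, and the one near CCNE1 alone reached 5 FPM in each library. For 16 ETS factor genes there were 1, 4, 4 and 0 members, none above 2.09 FPM.

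From a list of 38 well-known noncoding genes, 4, 1, 5 and 2 had a member at an end, and RN7SL2 was the only one in all 4 libraries. Listed genes inside or close to a coding gene, where the rule allows no member, were not taken out of the 38. RNU5A-1, of the U5 snRNA, measured 5.69 FPM in the control of the inhibitor and 7.18 FPM in the siRNA control. MIR17HG, the host of a cluster of microRNAs that MYC and E2F factors induce, measured 3.66 and 3.74 FPM in the same lists. PVT1, the lncRNA beside MYC, had 2.30 FPM in the siRNA control alone, in a region where the covering summits of the other lists were 1.63, 2.09 and 3.30 FPM.

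Between the inhibitor and its control, members had a higher median ratio than all matched summits. Of 886 summits matched within 250 bp whose 2 levels had a geometric mean of 5 FPM or more, 101 were members. Their median log2 ratio was 0.33 (quartiles -0.01 and 0.57), against 0.20 over all matched summits and 0.18 over 574 at coding gene ends. By the authors' deposited fold the members' median was -0.34, the opposite direction. The ratio was beyond counting error for 21 of the 101 members (20.8%, interval 13.4 to 30.01), 14 higher and 7 lower (9.26% and 7.45% of all matched summits), meaning that the 95% interval of the ratio excluded the median of all matched summits. The same held for 16.7% of all matched summits, and the members' interval includes that share. For gene-end summits it was 11.3%.

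Members that also differed at least 2-fold from the median numbered 5, 4 higher and 1 lower, where 5.53% of all matched summits did so (3.16% higher and 2.37% lower). The highest ratio was at position 55971705 of chromosome 13, in a gene-poor stretch 985 kb from the nearest coding gene, with 13.6 FPM under the inhibitor and 2.85 FPM in its control (26 and 7 fragments, log2 ratio 2.26, interval 1.02 to 3.71). The member near LTBP1 followed, with 163 and 57.8 FPM (log2 ratio 1.5, interval 1.21 to 1.80), on far more fragments (312 and 142). A summit 23.2 kb from NRF1, the gene of a regulator of mitochondrial biogenesis, had 20.4 and 7.32 FPM (log2 ratio 1.48, interval 0.64 to 2.37). One 79.2 kb from SLC2A9, a urate transporter gene, had 14.1 and 6.10 FPM (log2 ratio 1.21, interval 0.25 to 2.23). The 1 lower member lay 17.3 kb from TENT4A, a noncanonical poly(A) polymerase gene, with 6.81 and 15 FPM (log2 ratio -1.14, interval -2.18 to -0.20).

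Smaller differences beyond counting error included the member 204 kb from TBC1D22A, with 76.5 FPM under the inhibitor and 39.9 FPM in its control (log2 ratio 0.94, interval 0.56 to 1.32). FAM86KP (57.1 and 31.7 FPM, log2 ratio 0.85) and a summit 7.35 kb from C2orf42 (38.8 and 21.6 FPM, log2 ratio 0.85) were higher as well. The summit in STEAP2-AS1 was lower under the inhibitor (166 and 249 FPM, log2 ratio -0.59, interval -0.79 to -0.39), as was one 44.6 kb from ADAMTS17, a secreted protease gene (85.4 and 111 FPM, log2 ratio -0.38, interval -0.67 to -0.10).

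**Figure D4:**
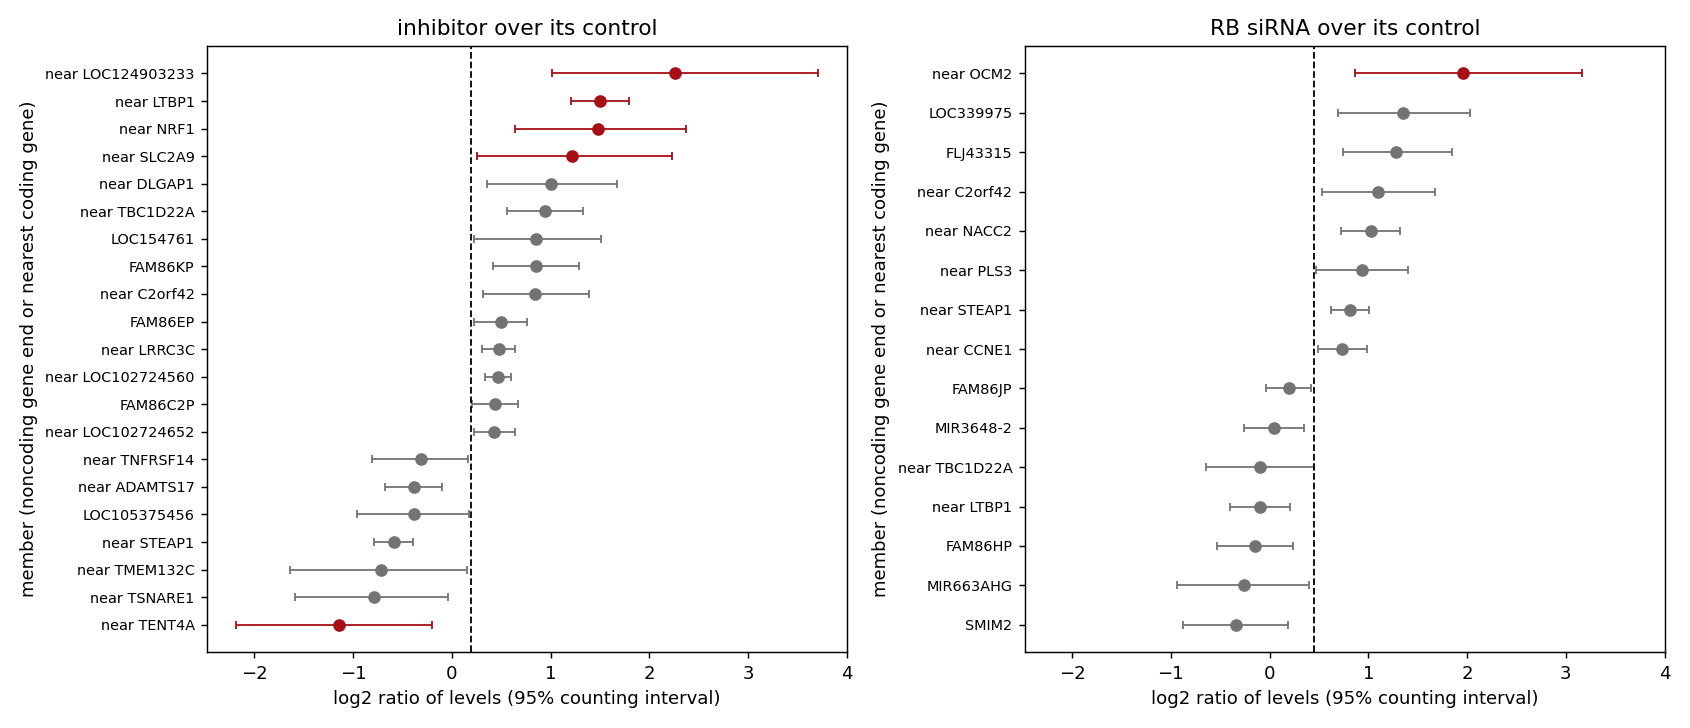
Log2 ratio of levels with its 95% counting interval for members beyond counting error, left for the inhibitor over its control (21 members) and right for RB siRNA over its control (15 members), each labelled by a noncoding gene end or the nearest coding gene. Dashed lines are the medians of all matched summits (0.20 and 0.45). Red points are at least 2-fold from the median (5 and 1), and the narrow red interval near LTBP1 on the left reflects 312 and 142 fragments.

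Between RB siRNA and its control the median of the members was close to that of all matched summits. Of 749 matched summits 78 were members, with a median log2 ratio of 0.41 (quartiles 0.15 and 0.61), against 0.45 over all and 0.44 over 471 at coding gene ends. By the authors' deposited fold it was -0.36, the opposite direction. The ratio was beyond counting error for 15 members (19.2%, interval 11.2 to 29.7), 8 higher and 7 lower, against 13.4% of all matched summits (7.61% higher and 5.74% lower) and 8.28% of those at gene ends. There was 1 member at least 2-fold above the median and none as far below, where 2% of all matched summits were (1.2% above and 0.801% below). It lay 11.3 kb from OCM2, an oncomodulin gene, with 11.1 FPM with RB siRNA and 2.87 FPM in its control (27 and 10 fragments, log2 ratio 1.95, interval 0.86 to 3.17). The same summit had 18.3 FPM in the control of the inhibitor, so the siRNA control was the lowest of these 3.

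Higher members with RB siRNA included those at an end of LOC339975 on chromosome 4 (22.7 and 8.91 FPM, log2 ratio 1.35) and of FLJ43315 on chromosome 9 (32.2 and 13.2 FPM, log2 ratio 1.28). A summit 15.8 kb from NACC2 was higher as well (95.7 and 47.1 FPM, log2 ratio 1.02, interval 0.73 to 1.32). In the control of the inhibitor these members had 37.4, 29.3 and 121 FPM, each above the siRNA control. The summits in STEAP2-AS1 (208 and 118 FPM, log2 ratio 0.81, interval 0.62 to 1.00) and near CCNE1 (125 and 74.7 FPM, log2 ratio 0.74, interval 0.49 to 0.98) lay above the median by less. Below it were the members near LTBP1 (63.1 and 67.5 FPM, log2 ratio -0.10) and TBC1D22A (20.2 and 21.6 FPM, log2 ratio -0.09), and FAM86HP (39.2 and 43.4 FPM, log2 ratio -0.15).

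The 2 controls, both without the treatments, were set beside each other as well. The control of the inhibitor also enters the first comparison and the siRNA control the second. Of 1191 matched summits 117 were members, with a median log2 ratio of 0.57 for the control of the inhibitor over the siRNA control (0.59 over all). The ratio was beyond counting error for 28 members (23.9%, interval 16.5 to 32.7), 16 higher and 12 lower, against 20.4% of all (11.8% higher and 8.56% lower). At least 2-fold from the median were 11 members, 4 higher and 7 lower, against 5.88% of all (2.43% and 3.44%). For gene-end summits the share beyond counting error was 13.9%.

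The 4 higher in the control of the inhibitor were those near OCM2 (18.3 and 2.87 FPM, log2 ratio 2.67), at LOC339975 (37.4 and 8.91 FPM, 2.07), 234 kb from ZFAT (10.2 and 2.59 FPM, 1.97) and near ADAMTS17 (111 and 34.5 FPM, 1.69). Lowest relative to the siRNA control was a summit at SMIM2 on chromosome 13, with 4.07 and 25 FPM (log2 ratio -2.62, interval -3.73 to -1.67). With RB siRNA that locus had 19.8 FPM, so both siRNA libraries lay well above the control of the inhibitor. MIR3648-2 (40.7 and 62.9 FPM, log2 ratio -0.63) and a summit 19.7 kb from ADRA2C, an adrenergic receptor gene (3.66 and 7.76 FPM, log2 ratio -1.08), were among the other 6.

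Between 37.5% and 52.3% of members of 5 FPM or more had a partner within 250 bp in the other library of their pair. Of the 221 members of 5 FPM or more under the inhibitor, 113 had a partner in its control (51.1%, against 65.4% of all summits of that level and 71.3% of those at gene ends), 20 could be hidden behind a higher summit of the covering interval, 46 fell in a gap between intervals, and 42 lay above the summit of the covering interval, 12 of them beyond counting error. In the other direction, of 248 members in the control, 93 had a partner (37.5%, against 38.4% and 41.3%), 125 could be hidden, 13 fell in a gap and 17 were above the covering summit, 3 beyond counting error. With RB siRNA 80 of 153 had a partner (52.3%, against 69.2% and 74.2%) and 2 were higher beyond counting error, and in its control 73 of 191 had a partner (38.2%, against 42.0% and 43.1%) and none was higher beyond it (7 were above the covering summit). Members of the controls were more often hidden, and the intervals of the treated lists are the wider ones.

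Among members without a partner, the one with the largest lower bound under the inhibitor lay 393 kb from GALR1, a galanin receptor gene (12.6 FPM, against at most 1.22 FPM in the control). Another lay 207 kb from TENM3, a teneurin gene (11 FPM, against at most 1.63 FPM), and one lay 36.1 kb from TUBA3C, an alpha tubulin gene (14.7 FPM, against at most 5.69 FPM). Higher in the control of the inhibitor was a summit 29.6 kb from FAM153A (41.1 FPM, against at most 6.81 FPM under the inhibitor), which was also higher than in the siRNA control (at most 14.7 FPM). With RB siRNA a summit 43.2 kb from ADAMTS17 had 67.3 FPM, against at most 34.5 FPM in its control. That control's summit lay at 99926579, away from the position of 99928244 with RB siRNA.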

How the data were processed

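Peak lists of 4 CUT&Tag libraries of 22RV1 cells were used, 1 per group. Per the submitters' processing notes, the authors used MACS2 2.1.0, Bowtie2 (version given as 2), Trimmomatic 0.33, bcl2fastq 2.17 and hg38, with order and settings not stated. The libraries are described as CUT&Tag, while the labels' protocols describe fixed, sonicated chromatin with an input. How these descriptions fit together is not stated, so the assay is uncertain. Each deposited interval gives the authors' score (its −log10 p multiplied and cut to a whole number), a fold or ratio of treatment to background at the summit, and −log10 p and q.

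Background and treatment fragments were solved from the deposited fold and −log10 p, using a Poisson tail and a MACS2 pseudocount of 1. Every member came out whole within 0.05. At the genome-wide background 100% of 9159, 3180, 9907 and 2566 summits were whole, against 10% by chance. Totals were 2458773, 1909343, 3479676 and 2423282 fragments, under an assumed window of 10000 bp and genome of 2.7 Gb. On lists simulated with known counts under this same model the recovery was 100% in each library. That checks the solving step only, and cannot test the model or the assumed window and genome size. The number of fragments sets the precision, and 1 is worth 0.287 to 0.524 FPM.

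Summits were matched when mutually nearest within 250 bp, and kept from a geometric mean of 5 FPM. Ratios carry exact conditional 95% intervals. Genes came from RefSeq on GRCh38 (19970 protein-coding and 39124 other genes). Named loci are the 8 highest members of each library, the 10 highest shared by all, those past 2-fold, the highest unmatched, 3 per noncoding class and members of the gene lists, from which the text takes some, and further loci were chosen after their values were seen. The members and lists were chosen with earlier results of these data known. Alternatives changed the distance, annotation, level, matching window, centre and fold. Python 3.11.15, numpy 2.4.6, pandas 2.3.3, scipy 1.17.1 and matplotlib 3.10.9 were used.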

Additional observations from a re-analysis of the deposited data

How the results depend on the processing

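No paired analysis was possible because each group held 1 library. Groups of 4 values again follow the order control of the inhibitor, inhibitor, siRNA control and RB siRNA. The share of summits that are members was 37.1%, 29.8%, 37.6% and 27.6% beyond 10000 bp from coding genes, 29.2%, 23%, 29.6% and 20.3% beyond 50000 bp and 30.1%, 23.8%, 28.9% and 21% outside genes of any kind. It was 12.5%, 16.9%, 12.7% and 14.8% among summits of at least 5 FPM, 12.1%, 14.9%, 12.7% and 14.2% at 10 FPM, 13.7%, 15.1%, 16.4% and 14.6% at 20 FPM and 19.5%, 33.3%, 19.6% and 18.8% at an authors' fold of at least 2. The share of members at a noncoding gene end was 4.71%, 8.03%, 4.41% and 8.03% with a window of 250 bp, 21.5%, 26.5%, 21.2% and 27.3% with 5000 bp and 43.1%, 41.2%, 43.5% and 39.9% for members of at least 5 FPM. Members shared by all libraries fell from 47 to 28 when matched within 100 bp. 

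Groups of 3 values follow the order inhibitor over its control, RB siRNA over its control and the control of the inhibitor over the siRNA control. Shared members numbered 154, 138 and 289 with no minimum, 138, 113 and 189 at 2 FPM, 66, 49 and 67 at 10 FPM and 41, 31 and 37 at 20 FPM. Members at least 2-fold from the median, 5, 1 and 11 as reported, were 6, 4 and 16 at 2 FPM, 3, 0 and 4 at 10 FPM, 1, 0 and 1 at 20 FPM, 2, 0 and 7 beyond 50000 bp from coding genes, 3, 1 and 9 matched within 100 bp, 10, 3 and 14 within 1000 bp, 7, 6 and 17 without centring, 13, 7 and 19 at 1.5-fold and 21, 15 and 28 by the interval alone. The cause was not tested. By the authors' deposited fold the median log2 ratio of shared members reversed, to -0.34 for the inhibitor and -0.36 for RB siRNA. That fold depends on how much 1 fragment adds to it, which differs between lists. Of the alternatives run, 33 stayed within their limits, 70 moved and 2 reversed.

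Depth limits single weak members, most of which rest on 3 or 4 fragments, and a level cannot be set for a locus hidden in a wide interval or in a gap. Loci in near-identical copies (FAM86 pseudogenes, the U2 array, the identical lncRNA windows of chromosome 21) have levels that depend on how reads were placed. How they were placed is not given in the sources used here. The same may hold for other loci on the short arm of chromosome 21, whose sequences were not read. Levels assume the window and genome size stated with the processing. No filter for regions of artefactual signal was applied to the members.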
